A study of Mus musculus with 180 samples.

Results

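The genes of MHC class II presentation were described in single haematopoietic cells of the mouse. The members were 9 genes taken by name from the 14825 genes of the deposited table, namely H2-Aa, H2-Ab1, H2-Eb1, Cd74, H2-DMa, H2-DMb1, H2-Oa, H2-Ob and Ciita, and all 9 were listed. The study induced Hoxb5 in multipotent progenitors (MPP) and compared the resulting cells with natural stem and progenitor cells. Every sequenced cell was 1 library, and 180 cells were used. All cells were on the C57BL/6 background. WT-MPP (41 cells) and BM HSC (36 cells) came from the bone marrow of 8-week-old Rosa LSL-Hoxb5-EGFP/+ mice, whose Hoxb5 cassette is silent without Cre. FL HSC (56 cells) came from fetal livers of the same genotype at Day14.5, and the gate for them asked for CD11b and CD150. CD11b+CD48+SK cells (47 cells) were the progeny of MPP from Mx1cre/Rosa LSL-Hoxb5-EGFP/+ donors, taken 8 weeks after transplantation into lethally irradiated CD45.1+ recipients. In these, Cre stands under the interferon-inducible Mx1 promoter and was switched on by the double-stranded RNA analogue pIpC, so transplantation, irradiation, pIpC and Hoxb5 cannot be told apart against the other populations. No animal is named for any cell. Each population therefore counted as 1 sample, and no test between populations was made.

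MHC class II molecules are heterodimers of an alpha and a beta chain that show peptides from endocytosed proteins to CD4+ T cells. The chains are assembled in the endoplasmic reticulum with the invariant chain Cd74, which blocks the groove and directs the complex to the endosome. There cathepsins cut Cd74 down to a short remnant, H2-DM exchanges the remnant for peptides, and H2-O restrains H2-DM. Ciita is the coactivator that switches on the class II chains, Cd74 and H2-DM in B cells, dendritic cells and macrophages. After interferon gamma it does so in many other cells. C57BL/6 mice make the H2-A heterodimer at the cell surface and lack H2-E, because their alpha chain gene for H2-E is defective.

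In GENCODE vM21 (GRCm38, the build named mm10 in the submitters' processing notes), 7 of the 9 genes lie in 1 stretch of chromosome 17. From the low end these are H2-Oa (chr17:34092340-34095234), H2-DMa (chr17:34119541-34139101), H2-DMb1 (chr17:34153072-34160230), H2-Ob (chr17:34238903-34254414), H2-Ab1 (chr17:34257689-34269419), H2-Aa (chr17:34282744-34287823, minus strand) and H2-Eb1 (chr17:34305867-34316674). The class I genes Psmb9, Tap1, Psmb8 and Tap2 lie between H2-DMb1 and H2-Ob. Ciita is at chr16:10480059-10528418, and Cd74 lies on another chromosome. All 9 are protein coding. Exons of H2-DMa share 360 bases with Brd2 on the opposite strand, those of H2-Oa 321 bases with the antisense gene BC051537 and those of Ciita 329 bases with Dexi. Strand was not given in the sources used here, so reads from these stretches cannot be assigned to 1 gene. Across cells, with population means subtracted, H2-DMa and Brd2 had a Pearson r of 0.004, H2-Oa and BC051537 an r of 0.08, and Ciita and Dexi an r of 0.11. Cd74 also contains a miRNA gene, Mir5107, which shares 12 exonic bases with it (r = 0.64).

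Class II promoters are known for an X box, bound by the RFX complex, followed by a Y box, bound by NF-Y, on which Ciita is recruited. Promoter windows from RefSeq (GRCm38.p6, 250 bases before to 50 after the start) matched 6 of the 9 genes. H2-Ab1, Cd74 and Ciita had no entry. The letters CNNGNAAC for the X box and ATTGG for the Y box, 12 to 32 bases apart and on either strand, were chosen with these windows in view. The boxes in this order were found in 5 of the 6, and in 0.837% of all 32851 windows (0.929% of 27025 genes). The stretches are shown because these members share them, with the X and the Y box in capitals, each written 5′ to 3′ on the strand of the gene.
H2-Aa (chr17:34287857-34287917, minus strand): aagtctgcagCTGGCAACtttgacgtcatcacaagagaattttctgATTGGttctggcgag
H2-Eb1 (chr17:34305763-34305822, plus strand): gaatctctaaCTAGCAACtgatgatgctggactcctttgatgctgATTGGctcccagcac
H2-Oa (chr17:34092290-34092340, plus strand): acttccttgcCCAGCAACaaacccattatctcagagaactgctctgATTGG
H2-Ob (chr17:34238805-34238862, plus strand): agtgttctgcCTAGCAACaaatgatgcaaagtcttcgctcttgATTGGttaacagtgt
The boxes are 28, 27, 28 and 25 bases apart, in the order of the sequences, and none of them overlap. The fifth gene, H2-DMb1, has its boxes 28 bases apart at chr17:34153094-34153134, inside an exon of a GENCODE transcript, and its sequence is not shown. The X box starts 84 bases before the RefSeq start in H2-Aa, 94 in H2-Eb1, 79 in H2-Oa, 90 in H2-Ob and 97 in H2-DMb1. Neither of the 2 windows of H2-DMa held the boxes in this order, which says only that these letters are not in these windows. The match is a description of the letters and not of binding in these cells.

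Levels are given in TPM (transcript abundance after division by transcript length and by the total of the cell), and a gene was called present in a cell at a TPM of 1 or more. Read numbers cannot be recovered from TPM, and the sequencing depth behind a cell is therefore unknown. FL HSC had the most genes present per cell, with a median of 5206.5, against 4514 in CD11b+CD48+SK cells, 4441.5 in BM HSC and 3844 in WT-MPP. Values above 0 but below 1 TPM were more frequent in WT-MPP and BM HSC, with medians of 1392 and 1445.5 genes per cell, than in the other populations, with 699 each. Many of the class II values of WT-MPP and BM HSC also lay between 1 and 10 TPM, so the share of cells at 10 TPM or more is given as well. Shares have exact 95% Clopper-Pearson intervals, which cover the counting of cells and not the spread between animals. Where no cell held a gene, the limit given is 3 cells of the total, which is a simpler bound than the exact interval. The labels name bone marrow as the source of every cell, FL HSC included. Hmga2, a gene of fetal stem cells, was present in 82.1% of FL HSC and in 4.88 to 25% of the cells of the other populations, and Cd48, used in the sort, in all 47 CD11b+CD48+SK cells and in 2.78 to 17.9% of the other populations.

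**Figure D1:**
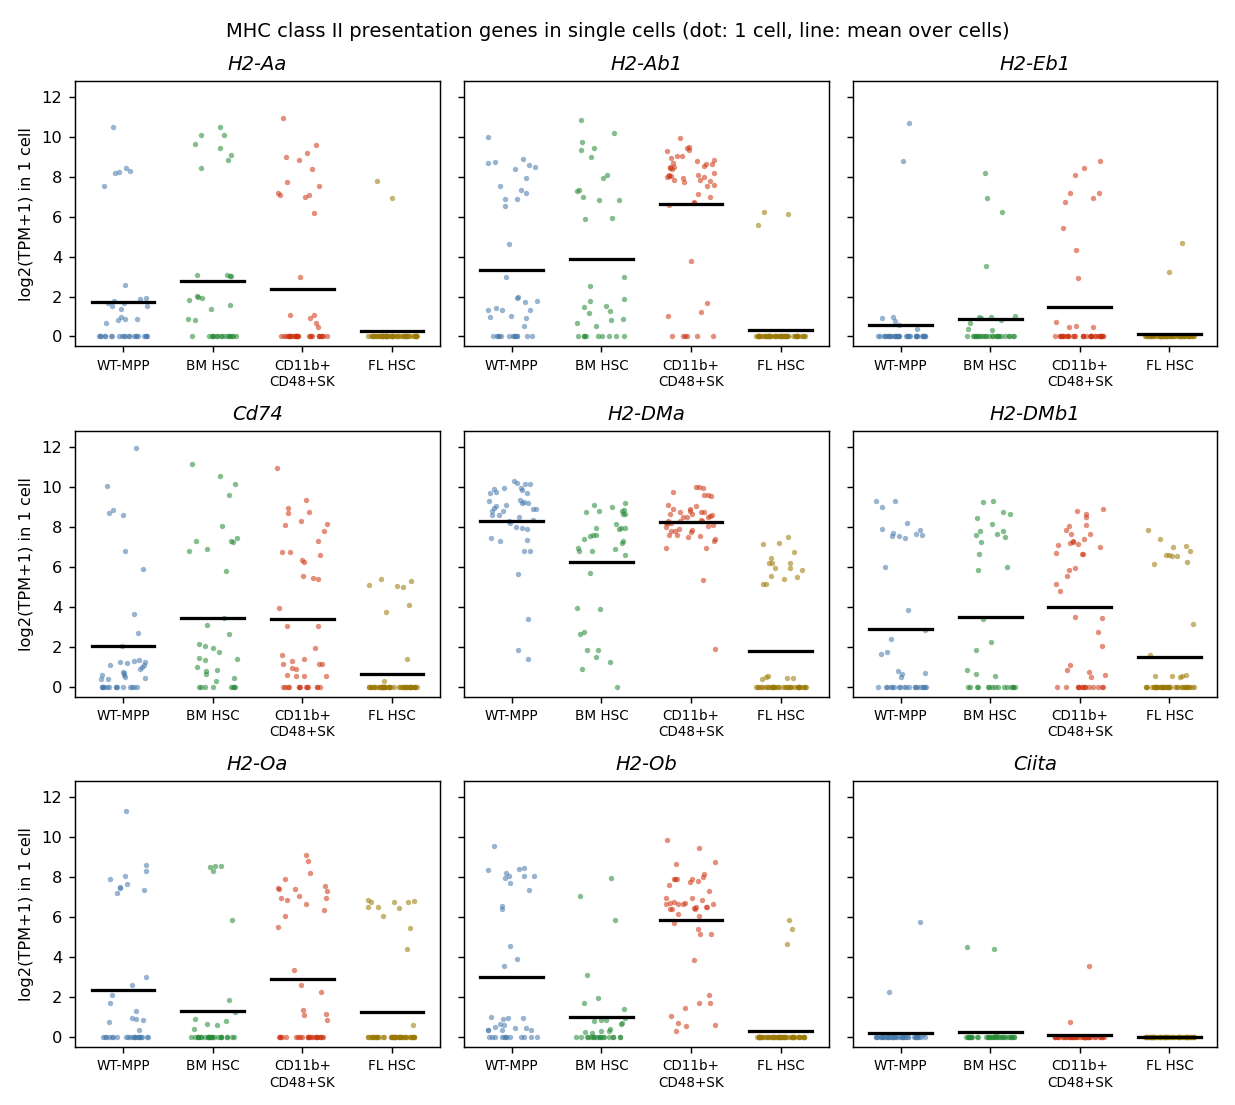
Level of each gene in every cell, as log2(TPM+1), with the cells of the 4 populations side by side. Each dot is 1 cell and each line the mean over cells. H2-DMa is high in most adult cells, H2-Ob and H2-Ab1 in most CD11b+CD48+SK cells, and FL HSC lie at 0 for most genes.

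The chains of H2-A were present in a large share of the adult cells and in few FL HSC. H2-Ab1, the beta chain, was highest in the CD11b+CD48+SK cells, where it ranged from 0 to 982 TPM with a median of 255 TPM. In BM HSC it ranged from 0 to 1871 TPM with a median of 2.53, and in WT-MPP from 0 to 1010 TPM with a median of 1.73. In FL HSC it was at 0 in 53 of 56 cells, and the highest value was 73.8 TPM. At 10 TPM or more, 80.9% of the CD11b+CD48+SK cells held it (66.7 to 90.9%), above the intervals of BM HSC (41.7%, 25.5 to 59.2%), WT-MPP (36.6%, 22.1 to 53.1%) and FL HSC (5.36%, 1.12 to 14.9%). The cells of BM HSC and WT-MPP fell into a group near 0 and a group at high levels, and their medians lay in the lower group. Among cells at 10 TPM or more, the median of H2-Ab1 was 248 TPM for WT-MPP, 244 for BM HSC and 283 for CD11b+CD48+SK, so these populations differed in the share of such cells more than in the level within them.

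H2-Aa, the alpha chain that pairs with H2-Ab1, did not follow it in the CD11b+CD48+SK cells. It was present in 34% of them (20.9 to 49.3%), with a median of 0 and a highest value of 1943 TPM. In BM HSC it was present in 50% (32.9 to 67.1%), with a highest value of 1422 TPM, and in WT-MPP in 36.6% (22.1 to 53.1%), with a highest value of 1420 TPM. The intervals of these populations overlapped. At 10 TPM or more the share was 27.7% in CD11b+CD48+SK cells, 22.2% in BM HSC and 14.6% in WT-MPP, again with overlapping intervals, and the order changed. FL HSC held it in 2 of 56 cells (3.57%, 0.435 to 12.3%), at up to 221 TPM. At 1 TPM or more this lay below the intervals of every adult population. At 10 TPM or more the FL HSC share was the same. Its interval then overlapped with those of WT-MPP (5.57 to 29.2%) and BM HSC (10.1 to 39.2%), and not with that of CD11b+CD48+SK cells (15.6 to 42.6%). Both chains were present together in 15 of 36 BM HSC, 12 of 41 WT-MPP, 14 of 47 CD11b+CD48+SK cells and none of 56 FL HSC, which allows a share of up to 5.36% there. With 10 TPM as the limit, the counts were 6 in BM HSC, 6 in WT-MPP and 11 in CD11b+CD48+SK cells. Of the 41 CD11b+CD48+SK cells with H2-Ab1, 27 were without H2-Aa.

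H2-Eb1, the beta chain of H2-E, was the least frequent of the chains. Among CD11b+CD48+SK cells the share was 21.3% (10.7 to 35.7%), against 13.9% in BM HSC (4.67 to 29.5%), 4.88% in WT-MPP (0.596 to 16.5%) and 3.57% in FL HSC (0.435 to 12.3%), and these intervals overlapped with their neighbours in this order. Its median was 0 in all populations. The highest value was 442 TPM in CD11b+CD48+SK cells, 295 in BM HSC, 1673 in WT-MPP and 24.8 in FL HSC. All 17 adult cells with H2-Eb1 also held H2-Ab1, which was the more frequent gene, while neither of the 2 FL HSC with H2-Eb1 did.

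Cd74, the invariant chain (chr18:60803848-60812652), was present in 63.9% of BM HSC (46.2 to 79.2%), 59.6% of CD11b+CD48+SK cells (interval 44.3 to 73.6%), 43.9% of WT-MPP (28.5 to 60.3%) and 14.3% of FL HSC (6.38 to 26.2%). The adult intervals overlapped and FL HSC lay below them. Medians were low, at 2.58 TPM in BM HSC, 1.59 in CD11b+CD48+SK cells, 0.624 in WT-MPP and 0 in FL HSC. Single cells reached far higher levels, up to 2315 TPM in BM HSC, 1953 in CD11b+CD48+SK cells and 4023 in WT-MPP, while no FL HSC exceeded 41.3 TPM. At 10 TPM or more, the shares were 40.4% in CD11b+CD48+SK cells (26.4 to 55.7%), 33.3% in BM HSC (18.6 to 51%), 19.5% in WT-MPP (8.82 to 34.9%) and 12.5% in FL HSC (5.18 to 24.1%). At this level FL HSC overlapped with BM HSC and WT-MPP, and not with the CD11b+CD48+SK cells.

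**Figure D2:**
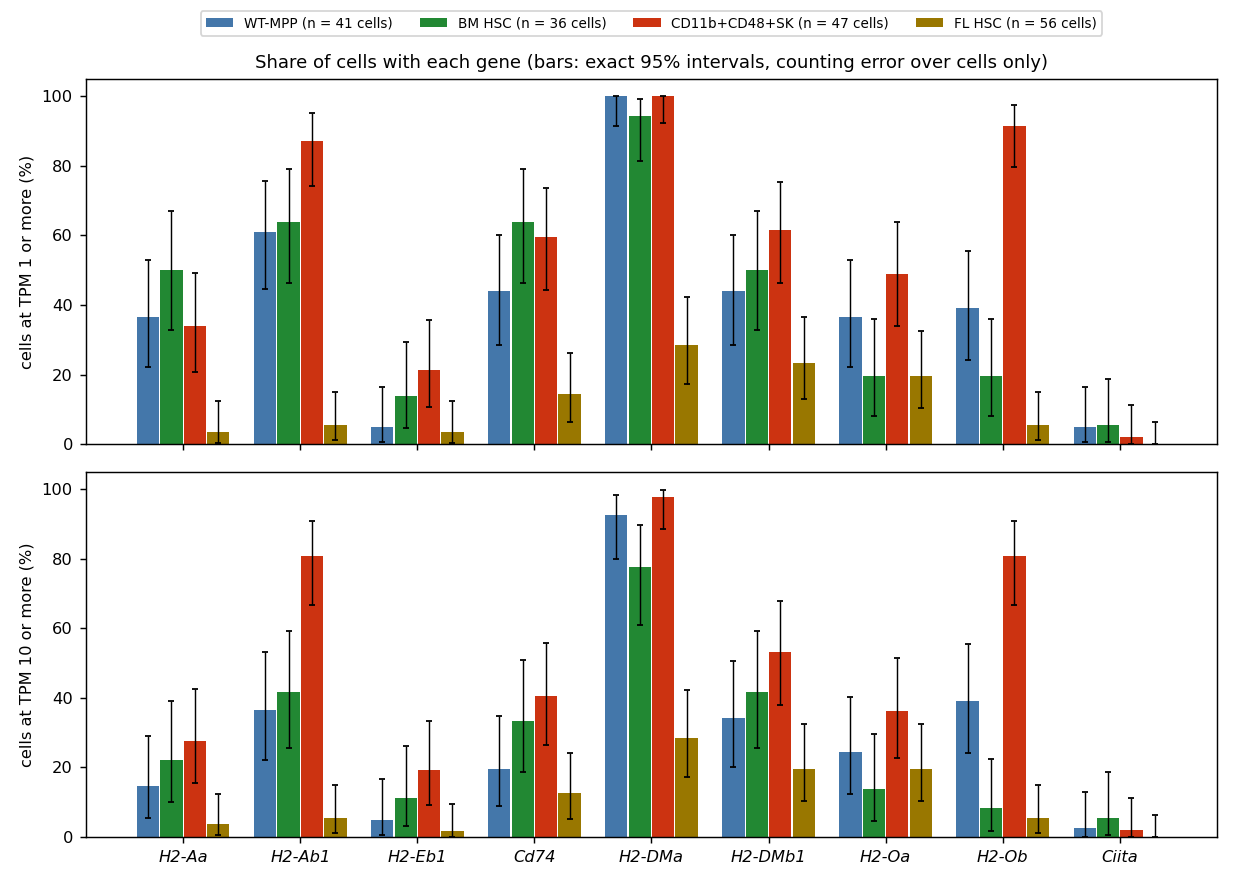
Share of cells with each gene, in percent, at a TPM of 1 or more (top) and of 10 or more (bottom), for the 4 populations. Bars are shares and lines exact 95% intervals for the counting of cells. The H2-DMa bars of the adult populations stand near the top in both panels, while the H2-Aa and Cd74 bars of WT-MPP and BM HSC are lower at 10 TPM.

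H2-DMa, the alpha chain of the peptide editor H2-DM, was the most frequent member in every population. It was present in all 41 WT-MPP (1.62 to 1253 TPM, median 474), in all 47 CD11b+CD48+SK cells (2.71 to 1042 TPM, median 316) and in 34 of 36 BM HSC (0 to 584 TPM, median 160). In FL HSC it ranged from 0 to 178 TPM with a median of 0, and 28.6% of the cells (17.3 to 42.2%) held it, below the intervals of every adult population. The adult cells thus lay mostly above the FL HSC, although BM HSC and FL HSC overlapped: 28 of 36 BM HSC and 16 of 56 FL HSC were at 10 TPM or more. Its mean in log2(TPM+1) was 8.31 in WT-MPP, 8.23 in CD11b+CD48+SK cells, 6.23 in BM HSC and 1.79 in FL HSC. Among the 10856 genes that passed the filter given below, the excess of WT-MPP over FL HSC (6.52) ranked 4 from the top, that of BM HSC (4.44) ranked 13 and that of CD11b+CD48+SK cells (6.44) ranked 12. Brd2, with which it shares exonic bases, differed from FL HSC by 0.80, 0.55 and 0.16 in the same order.

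H2-DMb1, the beta chain of H2-DM, was less frequent. It was present in 61.7% of CD11b+CD48+SK cells (46.4 to 75.5%), 50% of BM HSC (32.9 to 67.1%), 43.9% of WT-MPP (28.5 to 60.3%) and 23.2% of FL HSC (13 to 36.4%). Medians were 26.9 TPM in CD11b+CD48+SK cells, 1.68 in BM HSC, 0.525 in WT-MPP and 0 in FL HSC, and the highest values were 471, 629, 639 and 226 TPM. Neighbours in this order overlapped in their intervals, and FL HSC lay below the CD11b+CD48+SK cells. Every adult cell with H2-DMb1 also held H2-DMa, which was in nearly all of them, while in FL HSC 4 of the 13 cells with H2-DMb1 did. H2-DMb2, a near-identical copy next to H2-DMb1, was present in 19.6 to 34% of the cells of the 4 populations. Its r with H2-DMb1 across the 180 cells was 0.69, and the estimation could have divided reads between the 2 copies, so the level of H2-DMb1 is uncertain.

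H2-O, the inhibitor of H2-DM, differed between its chains. H2-Ob, the beta chain, was present in 91.5% of CD11b+CD48+SK cells (79.6 to 97.6%), above 0 in all 47, with a median of 99.9 TPM and a range from 0.208 to 915 TPM. It was present in 39% of WT-MPP (24.2 to 55.5%, up to 761 TPM), 19.4% of BM HSC (8.19 to 36%, up to 245 TPM) and 5.36% of FL HSC (1.12 to 14.9%, up to 56.1 TPM). The CD11b+CD48+SK cells lay above the intervals of all other populations, and WT-MPP above FL HSC, while BM HSC overlapped with both of its neighbours. At 10 TPM or more, 80.9% of CD11b+CD48+SK cells and 39% of WT-MPP held it, against 8.33% of BM HSC.

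H2-Oa, the alpha chain, was present in 48.9% of CD11b+CD48+SK cells (interval 34.1 to 63.9%), 36.6% of WT-MPP (22.1 to 53.1%), 19.6% of FL HSC (10.2 to 32.4%) and 19.4% of BM HSC (8.19 to 36%). Its medians were 0.770 TPM in CD11b+CD48+SK cells and 0 in the others, and the highest values were 550, 2583, 114 and 376 TPM in the order of the shares. It was the member with the smallest gap between BM HSC and FL HSC, with a difference of 0.03 in mean log2(TPM+1). H2-Oa and H2-Ob were present together in 20 of 47 CD11b+CD48+SK cells and 8 of 41 WT-MPP. In BM HSC, 7 cells held H2-Oa, another 7 cells held H2-Ob and no cell held both, which allows a share of up to 8.33%.

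Ciita, the coactivator of the class II chains, was close to the limit of detection. It was present in 2 WT-MPP (4.88%, 0.596 to 16.5%, up to 52.4 TPM), 2 BM HSC (5.56%, 0.680 to 18.7%, up to 21.7 TPM) and 1 CD11b+CD48+SK cell (2.13%, 0.0539 to 11.3%, 10.8 TPM). It was at 0 in all 56 FL HSC, which allows a share of up to 5.36%, and differences between populations were not detectable. Ciita was the member that did not pass the filter on low values. Cells with class II chains were far more frequent than cells with Ciita.

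The populations were then compared gene by gene, with the difference in mean log2(TPM+1) over cells. A gene was kept when 10% or more of the cells of any population held it, which left 10856 genes and 8 of the 9 members. The filter keeps a gene through the population in which it is highest, so counts over these 8 are a description. A difference of 1 or more was counted as large. The pseudocount of 1 makes differences of low genes smaller, and fewer cells with a gene and less RNA per cell cannot be told apart in such a mean. The comparisons with FL HSC share the FL HSC cells.

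Against FL HSC no member was lower in any adult population, and most were higher by 1 or more. In WT-MPP, 7 were higher by 1 or more (3.08% of all genes), and H2-Eb1 differed by 0.42. In BM HSC, 5 were higher (5.44% of all genes), while H2-Eb1, H2-Ob and H2-Oa differed by 0.72, 0.69 and 0.03. In CD11b+CD48+SK cells all 8 were higher (4.02% of all genes), from 1.31 for H2-Eb1 to 6.44 for H2-DMa, with 6.34 for H2-Ab1 and 5.57 for H2-Ob. Over the 8, the median difference was 2.63 in CD11b+CD48+SK cells, 2.29 in BM HSC and 1.45 in WT-MPP, whereas the median of all genes was -0.32, -0.31 and -0.56. When each cell was rescaled by a median of ratios over its genes, the medians of all genes became -0.24, -0.07 and -0.21, and the counts of members were again 8, 5 and 7. The split of all genes then moved from 3.08% higher and 33.9% lower to 7.71% and 21.3% in WT-MPP, and from 5.44% and 25.6% to 9.51% and 16.6% in BM HSC. After the scaling, 4.32% were higher and 17% lower in CD11b+CD48+SK cells. Erythroid RNA moved with these comparisons. The erythroid marker list (6 of 10 genes listed) summed to 104 to 11606 TPM per cell in FL HSC with a median of 2406, against medians of 39.5 TPM in BM HSC and of 0 in WT-MPP and CD11b+CD48+SK cells. No adult cell exceeded 2858 TPM. Its part in the differences was not tested.

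**Figure D3:**
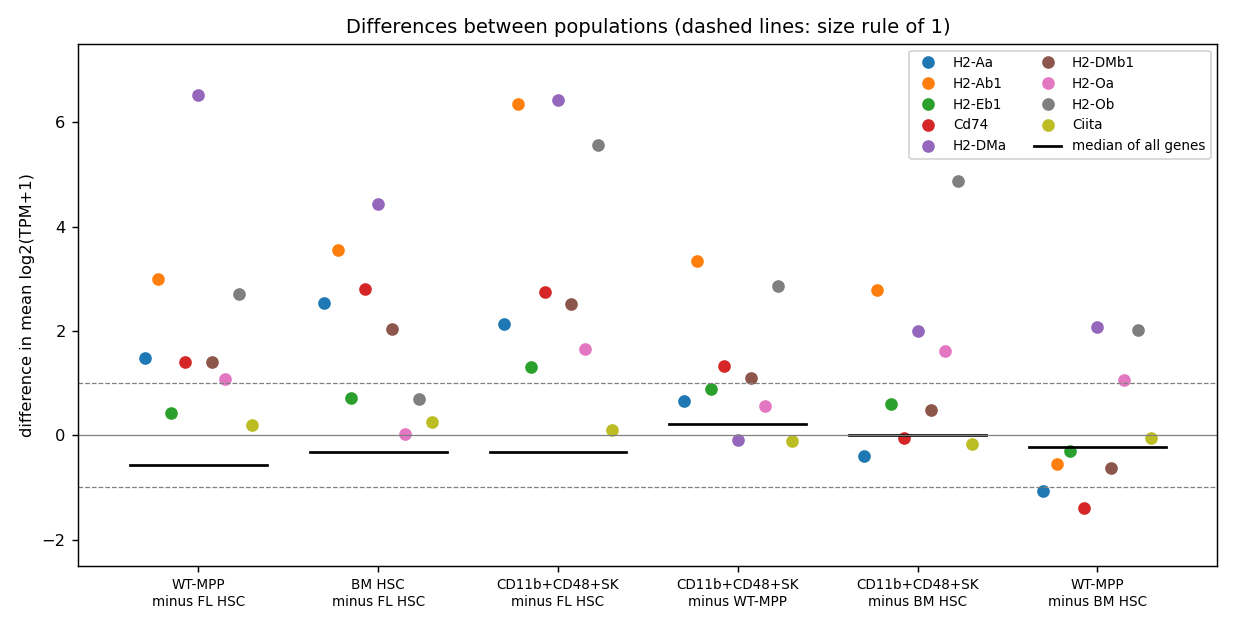
Difference in mean log2(TPM+1) of each gene for the 6 pairs of populations. Each dot is 1 gene, the black lines are the medians of all genes that passed the filter, and the dashed lines mark differences of 1 and -1. The dots lie above the black line in each comparison with FL HSC, while WT-MPP and BM HSC differ in both directions.

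The CD11b+CD48+SK cells were then set against WT-MPP, where H2-Ab1 was the chain that passed 1, with 0.66 for H2-Aa and 0.89 for H2-Eb1. Of the 8 members, 4 were higher by 1 or more (19% of all genes), namely H2-Ab1 by 3.34, H2-Ob by 2.86, Cd74 by 1.34 and H2-DMb1 by 1.1, and none was lower (5.01% of all genes). H2-DMa differed by -0.08. With the scaling by the median ratio, all genes split into 10.8% higher and 10.7% lower. Then 2 members, H2-Ab1 and H2-Ob, stayed at 1 or more, and H2-DMa came to -0.97. The log2 of the mean TPM plus 1 follows the few cells at the highest levels. By it, Cd74 turned to -0.36, H2-Eb1 to -0.55 and H2-Oa to -0.74, and H2-DMb1 came to 0.03 and H2-Ob to 0.66. The highest WT-MPP values of Cd74 (4023 TPM), H2-Eb1 (1673) and H2-Oa (2583) all came from WT-MPP cell 12. The WT-MPP means of these genes were 159, 51.6 and 114 TPM. Against BM HSC, the CD11b+CD48+SK cells had 4 higher members (13.4% of all genes) and none lower (11.8% of all genes). These were H2-Ob by 4.88, H2-Ab1 by 2.79, H2-DMa by 2.0 and H2-Oa by 1.61, whereas Cd74 differed by -0.05 and H2-Aa by -0.40. The scaling turned the split of all genes to 9.11% higher and 15.8% lower, and 4 members were again higher. By the log2 of the mean, H2-Ab1 came to 0.50, H2-DMa to 0.95 and H2-Oa to 0.70.

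WT-MPP and BM HSC differed in both directions. The editors H2-DMa, H2-Ob and H2-Oa were higher in WT-MPP, by 2.08, 2.02 and 1.05 (2.67% of all genes were higher by 1 or more). Cd74 and H2-Aa were lower in WT-MPP, with differences of -1.39 and -1.06 (14.49% of all genes were lower by 1 or more), and H2-Ab1 and H2-DMb1 differed by -0.55 and -0.62. Since 14.49% of all genes lay that low, the lower members stand out less than the higher ones. After scaling by the median ratio, H2-DMa and H2-Ob stayed above 1, H2-Oa came to 0.87 and H2-Aa to -0.94. All genes then split into 4.69% higher and 12.1% lower. The log2 of the mean brought Cd74 to -0.28 and H2-Eb1 from -0.30 to 1.79, with 4 members higher (11.7% of all genes). WT-MPP cell 12, with 1673 TPM of H2-Eb1, enters here too.

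The number of the 9 genes present per cell was counted next. It had a median of 5 in CD11b+CD48+SK cells (3 to 9), 4 in WT-MPP (1 to 7), 4 in BM HSC (0 to 6) and 1 in FL HSC (0 to 4). No CD11b+CD48+SK cell held fewer than 3, and 18 of 56 FL HSC held none. At 10 TPM or more, the medians were 4, 3, 2 and 1. H2-Aa, H2-Ab1 and Cd74, the parts of the H2-A complex before peptide loading, were present together in 38.9% of BM HSC (23.1 to 56.5%), 23.4% of CD11b+CD48+SK cells (12.3 to 38%) and 19.5% of WT-MPP (8.82 to 34.9%). With H2-DMa and H2-DMb1 added, the shares were 22.2%, 8.51% and 14.6%. None of 56 FL HSC held the 3 genes together. With a limit of 10 TPM, the 3 genes were together in 11.1% of BM HSC, 14.9% of CD11b+CD48+SK cells and 9.76% of WT-MPP, so the order of the populations changed. H2-DMa without any of H2-Aa, H2-Ab1, H2-Eb1 and Cd74 was found in 8 of 41 WT-MPP, 6 of 36 BM HSC, 1 of 47 CD11b+CD48+SK cells and 10 of 56 FL HSC. When 10 TPM was asked for, the counts were 21, 8, 6 and 10, so this share depends on the level at which a gene counts as present.

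**Figure D4:**
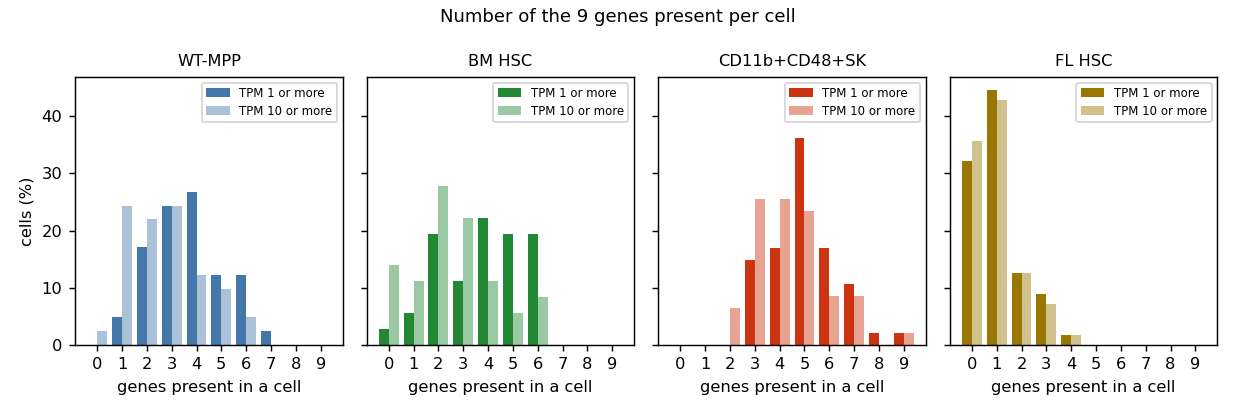
Number of the 9 genes present in a cell (horizontal axis) and the percent of cells with that number (vertical axis), in the 4 populations. Dark bars count genes at a TPM of 1 or more and pale bars at 10 or more. The bars of FL HSC pile up at 0 and 1, and those of the CD11b+CD48+SK cells begin at 3 for a TPM of 1 or more.

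Single cells with high levels of several members were seen in each adult population. CD11b+CD48+SK cell 45 held all 9 genes, with 982 TPM of H2-Ab1, 575 of H2-Aa, 442 of H2-Eb1, 431 of Cd74, 316 of H2-DMa and 10.8 of Ciita. BM HSC cell 31 held 2315 TPM of Cd74, 1871 of H2-Ab1, 1422 of H2-Aa, 295 of H2-Eb1 and 21.7 of Ciita, with H2-DMb1, H2-Oa and H2-Ob at 0. These cells resembled each other in the chains and differed in H2-O. WT-MPP cell 12 held 4023 TPM of Cd74, 2583 of H2-Oa and 1673 of H2-Eb1, but 4.96 of H2-Aa and 2.96 of H2-Ab1. Ciita was above 0 in 8 adult cells, and 7 of them also had H2-Aa above 0 and all 8 H2-Ab1.

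Across cells, the class II chains and Cd74 had higher coefficients with each other than with the editors. Pearson's r of log2(TPM+1) was taken over the 180 cells after the population means were subtracted. The cells share their populations and an unknown depth, and the values are a description. Among H2-Aa, H2-Ab1, H2-Eb1 and Cd74, r lay between 0.24 and 0.43 with a median of 0.37, highest for H2-Aa with H2-Eb1. The 26 pairs with H2-DMa, H2-DMb1, H2-Oa or H2-Ob lay between -0.10 and 0.17 with a median of 0.05. A value of 0.52 for H2-Ab1 with H2-DMb1 within WT-MPP was the highest of these pairs in any population. Among partners of a heterodimer, r was 0.34 for H2-Aa with H2-Ab1, 0.12 for H2-DMa with H2-DMb1 and 0.007 for H2-Oa with H2-Ob. H2-Aa with H2-Ab1 had an r of 0.59 in WT-MPP and 0.50 in BM HSC, but 0.08 in CD11b+CD48+SK cells, and in FL HSC the genes were at 0 in nearly all cells. Ciita had an r of 0.17 to 0.25 with the chains and Cd74, which rests on the 8 cells with Ciita. Without these cells the median r among the chains and Cd74 was 0.34. The number of genes present per cell had an r of 0.12 with the mean of the chains and Cd74, and of 0.31 with H2-DMb1.

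**Figure D5:**
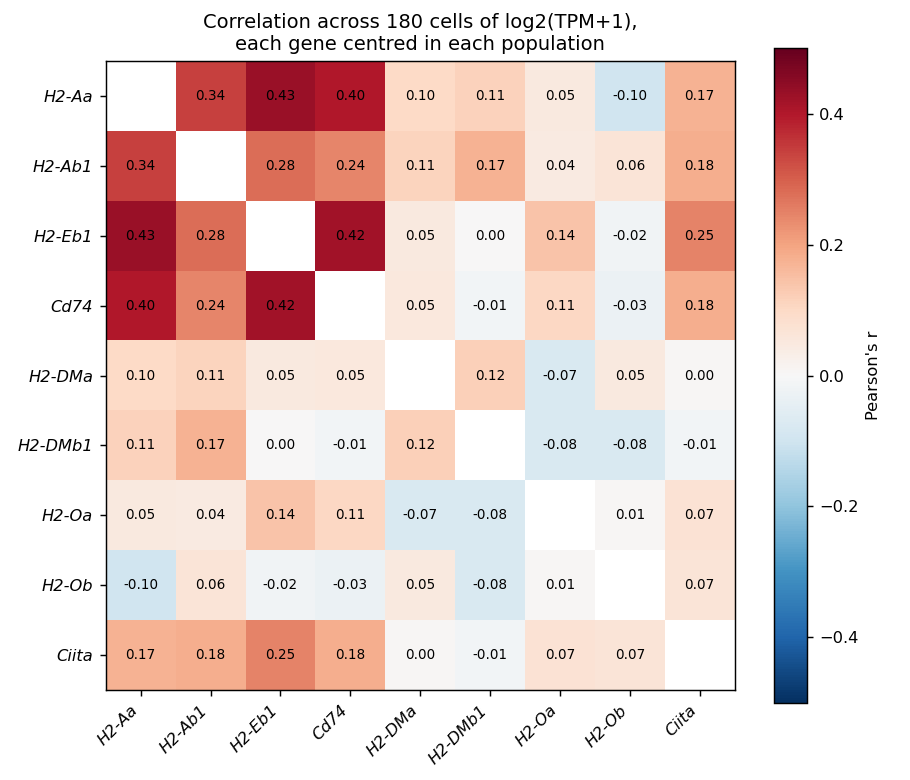
Pearson's r between the 9 genes across 180 cells, for log2(TPM+1) with population means subtracted. Red cells are positive and blue cells negative, on a scale from -0.5 to 0.5. The block of H2-Aa, H2-Ab1, H2-Eb1 and Cd74 is red, with r from 0.24 to 0.43, and the rows of H2-DMa, H2-DMb1, H2-Oa and H2-Ob are pale.

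The genes whose pattern was most like the mean of the 4 genes H2-Aa, H2-Ab1, H2-Eb1 and Cd74 were ranked among the 7508 genes that 20% or more of all cells held. Ctss, a cathepsin that cuts Cd74 in the endosome, came first with an r of 0.39. It was followed by Ppip5k2 at 0.31, Josd2 at 0.31, Tnfrsf21 at 0.30 and Tmem164 at 0.29, then by Ndrg3, Ccnl2, Irf2bp2, Tmem29 and Plcg2 at 0.26 to 0.28, and the median of the 7508 genes was 0.03. For H2-DMa, the genes were Prdx6 at 0.35, Gdf3 at 0.33, Fam172a at 0.30 and Srsf3 at 0.29, then Cmtm7, Rps26, Zfp608, Vcp, Tecr and Arhgdib at 0.27 to 0.28, with the same median of 0.03. These coefficients are low, and the first of many genes is high by its choice. Ctss was present in 56.1% of WT-MPP, 55.3% of CD11b+CD48+SK cells, but 22.2% of BM HSC and 12.5% of fetal liver HSC. The progenitor and lineage genes Flt3, Dntt, Irf8, Mpo, Cd48, Slamf1, Procr, Ly6a, Mki67, Birc5, Hoxb5 and Irf1 had an r between -0.10 and 0.20 with the mean of the 4 genes.

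The other genes of the pathway were described by lists, as the number of genes that differed by 1 or more, with the percent of all genes given above as the background. Against FL HSC, 20.9% of all genes were lower by 1 or more in CD11b+CD48+SK cells, 25.6% in BM HSC and 33.9% in WT-MPP. Of the 7 promoter factors (Rfx5, Rfxank, Rfxap, Creb1, Nfya, Nfyb and Nfyc), all were listed. None was higher than in FL HSC by 1 or more in an adult population, and 3.08 to 5.44% of all genes were. By the same size, 1 was lower in WT-MPP, 2 in BM HSC and none in CD11b+CD48+SK cells. The medians of the 7 factors were -0.09 in CD11b+CD48+SK cells, -0.59 in BM HSC and -0.73 in WT-MPP. Rfx5 came highest in WT-MPP, at 0.82 above FL HSC. Of the 10 genes of antigen processing, Ctss was higher than in FL HSC by 2.88 in WT-MPP and 2.97 in CD11b+CD48+SK cells, and no other gene of the list was higher by 1 or more in any adult population. Ctsl, another cathepsin, had differences of -3.70, -2.06 and -2.77 in WT-MPP, BM HSC and CD11b+CD48+SK cells, and 4, 3 and 4 genes of the list were lower.

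Of 13 genes of the interferon gamma response, 12 were listed and 10 passed the filter. Against FL HSC, 1 was higher and 2 were lower in WT-MPP, 2 higher and 1 lower in BM HSC, and none higher and 4 lower in CD11b+CD48+SK cells, beside the shares of all genes given for these comparisons. In CD11b+CD48+SK cells 6 were lower than in BM HSC (11.8% of all genes) and none higher (13.4% of all genes), with a median of -1.38. Gbp6, an interferon-induced GTPase, was present in 34.1% of WT-MPP, 38.9% of BM HSC, 5.36% of FL HSC and no CD11b+CD48+SK cell. Among 8 listed genes that signal towards Ciita, 7 passed the filter. Compared with FL HSC, 2 were lower in each adult population. None was higher in WT-MPP, 1 in BM HSC (Jak1 by 2.11) and 1 in CD11b+CD48+SK cells (Irf1 by 1.39). In CD11b+CD48+SK cells Ifngr1 differed by -1.97 from FL HSC and Jak1 by -2.61 from BM HSC. Irf1 was present in 85.4% of WT-MPP, 83.0% of CD11b+CD48+SK cells, 72.2% of BM HSC and 64.3% of FL HSC, and Irf8 in 4.88%, 25.5%, 16.7% and 42.9%. Of 5 costimulatory genes, 3 were listed, and none differed by 1 or more in any pair. Cd86 was present in 4.26 to 19.4% of the cells of the 4 populations. March8, which marks class II for removal from the surface, was present in 8.51 to 21.4%.

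Of 9 genes of class I presentation, 6 were higher by 1 or more in WT-MPP than in FL HSC, 5 in BM HSC and 8 in CD11b+CD48+SK cells. Of all genes, 3.08%, 5.44% and 4.02% were. None of the 9 was lower by 1 or more, against 33.9%, 25.6% and 20.9% of all genes in the same order. B2m, the light chain of class I, was present in all 180 cells, with a mean log2(TPM+1) of 13.9 in WT-MPP, 13.9 in BM HSC, 13.6 in CD11b+CD48+SK cells and 12.2 in FL HSC.

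Markers of professional class II cells were read in the same cells. Of the 10 B cell markers, 6 were listed, and their sum reached 0 to 975 TPM per cell in WT-MPP, 0 to 1085 in BM HSC, 0 to 529 in CD11b+CD48+SK cells and 0 to 968 in FL HSC. Cd79b was present in 61.7 to 83.9% of the cells of the 4 populations. Cd79a was present in 1 BM HSC and 1 FL HSC. Of the 10 dendritic cell markers, 5 were listed, with sums of 0 to 1459, 0 to 851, 0 to 1397 and 2.92 to 3501 TPM in the same order. Xcr1, Zbtb46 and Batf3 were present in no WT-MPP and no CD11b+CD48+SK cell. Flt3, which also marks the sorted MPP, was higher in CD11b+CD48+SK cells by 1.22 than in WT-MPP and by 5.42 than in BM HSC. Bst2, an interferon-induced membrane protein, was higher in them by 1.91 than in WT-MPP and by 1.08 than in BM HSC. The part of these markers in the class II differences was not tested. Of the 10 monocyte and macrophage markers, 9 were listed, with sums of 9.20 to 4329, 219 to 3708, 281 to 2508 and 209 to 3802 TPM, and Csf1r, Fcgr1 and Ccr2 were present in no adult cell. Lyz2 was present in all 180 cells. Ms4a1, Pax5, Itgax, Clec9a and Adgre1 were not analysed here. The cells that held any of 14 rarer markers of these lists were then left out. This kept 31 of 41 WT-MPP, 32 of 36 BM HSC, 34 of 47 CD11b+CD48+SK cells and 28 of 56 FL HSC. FL HSC, the reference of these comparisons, thus lost the largest share. Among the cells kept, 7, 6 and 7 members were higher than in FL HSC by 1 or more in WT-MPP, BM HSC and CD11b+CD48+SK cells. Of all genes, 4.22%, 7.65% and 6.01% were. In this setting, chosen after seeing the data, H2-Oa came to 1.18 above FL HSC in BM HSC and H2-Eb1 to 0.76 in CD11b+CD48+SK cells.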

How the data were processed

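Single cells were amplified with the Discover-sc WTA Kit V2 (Vazyme), libraries were made with the TruePrep kit and sequenced on a NextSeq 500. The authors aligned reads with HISAT2 (2.1.0), sorted them with SAMtools (0.1.19) and estimated TPM per gene and cell with StringTie (1.3.4) on mm10. Their deposited TPM values sum to 1000000 per cell, which keeps no depth. Of 181 columns, 1 matched no sample label and was not used. Values were transformed as log2(TPM+1) and averaged over cells with pandas 2.3.3, numpy 2.4.6 and scipy 1.17.1 under Python 3.11.15. The difference step was tested on resampled WT-MPP cells with known changes put in. For the correlations, only the subtraction of population means was checked. With 1 sample per population, no test was made. The members and gene lists were chosen with earlier results of these data known. Genes were named when they were members, paralogs, class I or state genes, extremes of a list, or among the 10 most alike. Marker genes and Brd2 were also named. Alternatives changed the pseudocount, filter, threshold, scaling, averaging and cells used.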

Additional observations from a re-analysis of the deposited data

How the results depend on the processing

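No paired analysis was possible because the cell numbers do not pair cells and no value comes from a test. Leaving out a replicate was not possible, since each population is 1 sample. Of 632 alternative values, 529 counted as unchanged, 99 moved and 4 (3 medians and the difference of Cd74) turned in sign. Counts and medians were unchanged within 1.5 times, but a gene difference only had to stay on the same side of 1. The gene differences without a filter are the reported values by construction and are among the 529. This number therefore overstates how stable the values are. Among gene differences under 1, another 11 turned in sign. The excess of WT-MPP over FL HSC had a median of 2.71 with a pseudocount of 0.1 and 0.81 with 10 (3 members and 1.1% of all genes higher). It was 4.56 with the log2 of the mean TPM and 2.44 among cells with 3974 to 4751 genes present. That of BM HSC was 3.52 and 1.3 with these pseudocounts, and 8 members were higher by the log2 of the mean (19.3% of all genes). That of CD11b+CD48+SK cells was 4.09, 1.43 and, by the log2 of the mean, 4.29. Against WT-MPP, the median of CD11b+CD48+SK cells was 1.5 and 0.53 with the pseudocounts of 0.1 and 10. It was -0.16 by the log2 of the mean and 0.47 in the shared range of genes. In this comparison, 2 members were higher with the pseudocount of 10 (6.95% of all genes), 1 by the log2 of the mean (10.3%) and 2 with the scaling (10.8%). Cd74 became -0.36 there by the log2 of the mean. For CD11b+CD48+SK cells against BM HSC, the median was 0.61 with the pseudocount of 10, 0.60 by the log2 of the mean and 0.59 without a filter. With the scaling it was 0.85 and in the shared range 0.14. By the log2 of the mean, 2 members were higher (9.78% of all genes). In the shared range 1 member was lower (17.7% of all genes). Without cells with a rarer B cell, dendritic cell or macrophage marker, 1 was also lower (13.3%). Between WT-MPP and BM HSC, the median was -0.73 and -0.21 with the pseudocounts, 0.55 by the log2 of the mean and 0.46 in the shared range. With the pseudocount of 10, 0 members were lower (3.41% of all genes). By the log2 of the mean, with the scaling and without the marker-holding cells, 1 was lower each time (15.6%, 12.1% and 15.9%). Without a filter and in the shared range Ciita entered, so those medians are over 9 members. The medians of 0.14 and 0.46 in the shared range are the differences of Ciita itself. In the shared range, FL HSC held 0.643 members per cell and the median r among the chains and Cd74 was 0.45. That range holds 17 WT-MPP, 14 BM HSC, 24 CD11b+CD48+SK cells and 14 FL HSC. The cause of these shifts was not tested. The marker alternative and the one without Ciita cells were chosen after seeing the data, as was the repeat of the r of Ctss (0.34 to 0.39). The unknown depth limits what a 0 in a cell says.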
